A study of Mus musculus with 10 samples.

Results

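Nlrc5, Mx1 and Trex1 are 3 interferon-linked genes that the authors' deposited table of macrophage genes lists as differing between mice with and without integrin beta3 in the macrophage lineage. They were taken as the rows of the 2 deposited gene tables that carry these names, which gave 1 probeset each among the 35556 probesets of the array value table. All 3 rows lie in the macrophage table of 122 rows and none in the tumor cell table of 130 rows, so the genes were chosen for a genotype difference inside the macrophages, and that difference is described below without a test. The tables are titled as genes unique to each cell type, though 1 probeset is in both. How uniqueness was judged is not stated, so a lack of a difference in the other cell type may be part of either choice.

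Mouse mammary tumor cells of the line PyMT-BO1-GFP-Luc, which express green fluorescent protein and luciferase, were injected into the mammary fat pad at 100000 cells, and on day 10 each tumor was sorted into the injected cells and CD206hi tumor-associated macrophages (TAMs). CD206, a mannose-binding receptor on the cell surface, is a common marker of alternatively activated macrophages. The 4 groups were TAMs of wild-type (WT) mice (3 arrays), TAMs of b3KOM mice (3 arrays), tumor cells from WT hosts (2 arrays) and tumor cells from b3KOM hosts (2 arrays). In b3KOM mice integrin beta3 is deleted in macrophage-lineage cells, while the injected cells are the same line in both hosts. The driver of the deletion, the strain, sex and age of the mice and the number of animals behind an array are not stated in the labels, so the spread between arrays of a group may be partly technical. The deleted gene Itgb3 has no named probeset in the tables used and is not analysed here, so these values carry no check of the deletion.

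Interferons are cytokines that switch on a large program of antiviral and antigen presentation genes through receptors on the cell surface. Nlrc5 encodes a protein of the NOD-like receptor family that activates transcription of MHC class I genes and is itself induced by interferon gamma. Mx1 encodes a dynamin-like GTPase induced by type I and type III interferons that blocks influenza viruses, and many inbred mouse strains carry a defective copy. Trex1 encodes a DNA exonuclease that clears DNA from the cytosol, and in its absence that DNA drives type I interferon through the cGAS and STING sensors. Macrophages are major makers of interferon and major responders to it.

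In the RefSeq annotation of GRCm38.p6, which gives the chromosomes here because the labels name no build, Nlrc5 is a protein-coding gene on chromosome 8 and Trex1 a protein-coding gene on chromosome 9. Mx1, on chromosome 16, is annotated there as a transcribed pseudogene, so its values speak of a transcript and not of a working protein. Trex1 lies within the span of a non-coding readthrough transcript, Atrip-trex1, that also covers the neighbouring gene Atrip. Whether the Trex1 probeset also reads that transcript was not tested.

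The RefSeq promoter table holds 2 start sites for Trex1, and none of its entries is for Nlrc5 or Mx1. The window of the first Trex1 start shares 227 of its 300 bases with the annotated span of Atrip and 50 with that of Trex1. The window of the second start shares none with Atrip, but all its 300 bases lie inside the annotated span of Trex1. Both windows lie wholly inside that of Atrip-trex1. A promoter that responds to interferon may hold an interferon-stimulated response element (GAAA, any pair of bases, GAAA) or a gamma-activated site (TTCNNNGAA). The sequence before the second start is shown for this reason. It covers chr9:109059252-109059501 on the minus strand, the 250 bases that end just before the start, with no capitals since none of the motifs searched was found.
Trex1, second start: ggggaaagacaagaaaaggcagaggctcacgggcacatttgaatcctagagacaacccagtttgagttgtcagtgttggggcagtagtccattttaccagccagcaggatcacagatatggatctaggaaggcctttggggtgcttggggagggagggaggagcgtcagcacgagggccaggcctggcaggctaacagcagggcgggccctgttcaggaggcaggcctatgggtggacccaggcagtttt
Each window reached from 250 bases before the start to 50 after it, and both strands were searched, with matches of different motifs allowed to overlap. Both Trex1 windows lacked the response element, the gamma-activated site and the TATA box TATAAA. Of all 32851 windows in the table, 3.44% held the response element, 8.30% the gamma-activated site and 13.6% the TATA box. The absence of these letters from the windows says nothing about binding elsewhere or of other sequences.

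The values are log2 intensities normalized by the authors with RMA, a method that corrects background, gives all arrays one distribution and sums the probes of a probeset. Array medians ran from 4.13 to 4.22, and the median of the whole table, 4.19, serves as a mark of dim signal since the table has no detection calls. Arrays correlated across probesets with Pearson's r of 0.981 to 0.985 within TAMs and 0.990 to 0.993 within tumor cells. Probesets above the table median on at least 2 arrays, 20246 in number, entered a limma model with 1 mean per group, and a probeset was called at a Benjamini-Hochberg adjusted p under 0.05. Markers followed the labels of the sorted populations, though the gene for CD206 itself, Mrc1, has no name in the tables. The 12 named macrophage markers, among them Csf1r (the growth factor receptor on which macrophages depend) and Cd68, were 3.42 to 5.67 log2 units higher in TAMs. Gja1, a gap junction gene from the list of tumor epithelial markers, was higher in tumor cells, with a difference, TAM minus tumor cells, of -2.84.

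Nlrc5, the MHC class I activator, measured 5.09, 4.84 and 4.79 (log2 levels) in the TAMs of WT replicates 1, 2 and 3, and 4.17, 3.77 and 4.32 in those of b3KOM replicates 1, 2 and 3. The highest b3KOM array lay 0.47 below the lowest WT array. In tumor cells it measured 3.09 and 2.75 from WT hosts and 2.59 and 2.69 from b3KOM hosts. All 4 tumor cell values and those of b3KOM TAM replicates 1 and 2 fell below the table median, where signal and background are hard to separate.

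Mx1, the antiviral GTPase, measured 4.98, 5.44 and 5.43 in the TAMs of WT replicates 1, 2 and 3, and 4.86, 4.59 and 4.65 in those of b3KOM replicates 1, 2 and 3. The genotypes did not overlap, but WT replicate 1 stood only 0.12 above b3KOM replicate 1. In tumor cells Mx1 was at 2.30 and 2.46 from WT hosts and at 2.46 and 2.38 from b3KOM hosts. These 4 values are close together and far below the table median, where signal cannot be told from background.

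Trex1, the DNA exonuclease, measured 7.08, 7.27 and 7.34 in the TAMs of WT replicates 1, 2 and 3, and 6.84, 6.70 and 6.91 in those of b3KOM replicates 1, 2 and 3. The gap between the nearest arrays of the genotypes was 0.17. In tumor cells it measured 5.83 and 5.59 from WT hosts and 5.78 and 5.57 from b3KOM hosts. Trex1 was the one gene of the 3 above the table median on all 10 arrays, so its differences rest on signal in both cell types.

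**Figure D1:**
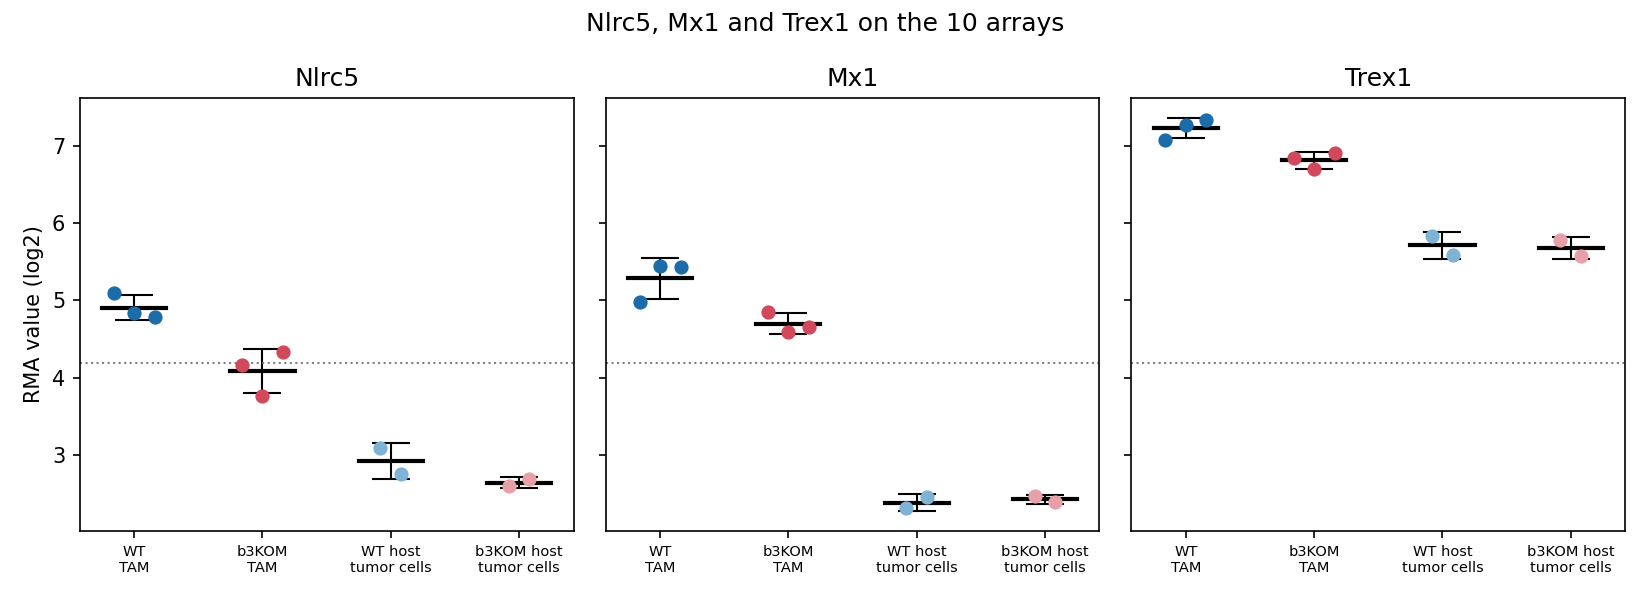
Log2 RMA values of Nlrc5, Mx1 and Trex1 (one panel each) on each of the 10 arrays, by group. Points are arrays in the order of their replicate numbers, horizontal bars the group mean, whiskers ± SD and the dotted line the table median of 4.19. The WT TAM points lie above the b3KOM TAM points in each panel, and all tumor cell points lie lower still, below the dotted line for Nlrc5 and Mx1.

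Set between the genotypes, the TAM values gave the differences for which the genes had been picked. Nlrc5 averaged 4.91 ± 0.16 (SD, n = 3) on the WT arrays and 4.09 ± 0.29 (SD, n = 3) on the b3KOM arrays, a log2 difference, b3KOM minus WT, of -0.82 ± 0.16 (SE), or 1.77-fold. Mx1 averaged 5.28 ± 0.27 (SD, n = 3) and 4.70 ± 0.14 (SD, n = 3), a difference of -0.59 ± 0.14 (SE), or 1.50-fold. Trex1 averaged 7.23 ± 0.13 (SD, n = 3) and 6.82 ± 0.11 (SD, n = 3), a difference of -0.42 ± 0.12 (SE), or 1.34-fold. Since 2 of the 3 b3KOM arrays lay below the table median for Nlrc5, its fold is no exact size. The non-overlap of the genotypes in all 3 genes comes with their choice and compares with 4.11% of all tested probesets whose b3KOM TAM arrays were all below the WT ones. In the same contrast limma called 0.0148% of all probesets in either direction and 0.00494% lower in b3KOM.

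The authors' deposited table puts the log2 fold change of WT against b3KOM TAMs at 0.87 for Nlrc5, with an unadjusted p of 0.000763. In the authors' deposited table Mx1 stands at 0.53 with a p of 0.00328 and Trex1 at 0.43 with a p of 0.00269. By p the genes took places 5 (Nlrc5), 17 (Trex1) and 22 (Mx1) of the 122 rows of the authors' deposited table, whose largest p is 0.00989. The mean level given for Nlrc5 in the authors' deposited table, 4.63, is 0.13 above the mean of the 6 TAM arrays in the value table. The deposited rows and the value table were thus not computed from identical values.

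Leaving out any 1 of the 6 TAM arrays kept the direction, with differences from -0.94 to -0.66 for Nlrc5, from -0.74 to -0.51 for Mx1 and from -0.49 to -0.36 for Trex1. The direction had to hold, since the TAM arrays of the genotypes did not overlap. Macrophage markers had near-equal values in the TAMs of the genotypes. All 12 were named through the table titled as unique to tumor cells, so this near-equality may be part of their choice. The mean of the 12 markers ran from 11.84 to 11.91 on the WT TAM arrays and from 11.83 to 11.90 on the b3KOM TAM arrays, and their median difference was 0.0071. Gja1, the 1 tumor cell marker with a name out of 10 listed, had values that did not overlap. It measured 7.45, 7.46 and 7.22 in WT and 7.79, 7.86 and 7.90 in b3KOM TAMs, though it too was named through the table of genes chosen on these arrays. Its part in the differences of Nlrc5, Mx1 and Trex1 was not tested. In sorted bulk samples, fewer cells of a type with a high level and less RNA per cell cannot be told apart.

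The contrast of cell types is another one than that of the choice and asks where in the tumor these transcripts lie. Averaged over the genotypes, Trex1 was 2.51-fold higher in TAMs than in tumor cells, a log2 difference of 1.33 ± 0.09 (SE), and its limma adjusted p was 2.51e-06. Mx1 was 2.59 ± 0.11 (SE) higher with a limma adjusted p of 1.47e-07, and Nlrc5 1.72 ± 0.13 (SE) higher with a limma adjusted p of 4.66e-06. Each gene was higher on all 6 TAM arrays than on all 4 tumor cell arrays, which held for 20.8% of the probesets tested. Limma called 66.1% of all probesets here, 24.9% higher in TAMs and 41.2% lower, and the median difference over all of them was -0.14. Nlrc5 and Mx1 passed the filter only through TAM arrays and had to differ, so their calls add little, and against tumor cell values near background their differences are no exact sizes.

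Of the 3 cell type differences, that of Trex1 moved most with the scaling. With cyclic loess between arrays the median of all probesets moved by 0.18 and 6735 of 13042 calls were higher in TAMs, while Trex1 stood at 1.58, Mx1 at 2.63 and Nlrc5 at 1.75. Within WT tumors the TAM mean exceeded the tumor cell mean by 1.99 for Nlrc5, 2.90 for Mx1 and 1.52 for Trex1. Within b3KOM tumors the excess was 1.45 for Nlrc5, 2.28 for Mx1 and 1.14 for Trex1, and these smaller values hold the TAM difference by which the genes were chosen.

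**Figure D2:**
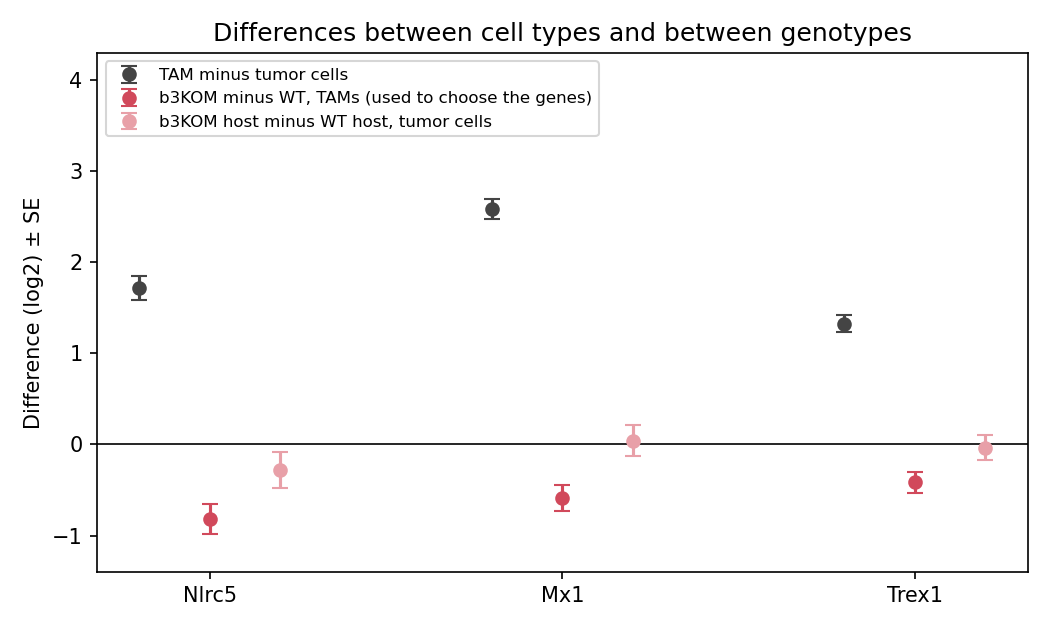
Log2 differences of Nlrc5, Mx1 and Trex1 (horizontal axis) between TAMs and tumor cells (dark), between b3KOM and WT TAMs (red, the contrast that chose the genes) and between tumor cells from b3KOM and WT hosts (pink), with whiskers of ± 1 SE from the limma fit. Trex1 stands at 1.33, -0.42 and -0.035 in that order, and each pink point lies nearer to 0 than the red one beside it, which the choice of the genes favours.

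The comparison of hosts sets the same genes side by side in the injected cells. None of the 3 passed there, but a table of genes unique to TAMs may have left out genes that differed in tumor cells, so this is no independent outcome. Trex1, measured well above the table median, averaged 5.71 ± 0.17 (SD, n = 2) in cells from WT hosts and 5.68 ± 0.15 (SD, n = 2) in cells from b3KOM hosts. Its log2 difference was -0.035 ± 0.14 (SE), with a 95% interval from -0.36 to 0.29 and a limma adjusted p of 1. With 2 arrays per host, changes inside that interval remain possible. The interval is unadjusted, so it does not mark the smallest change that could have been called.

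Mx1 differed by 0.042 ± 0.17 (SE) and Nlrc5 by -0.28 ± 0.20 (SE), both with a limma adjusted p of 1 and both at background level. The Mx1 and Trex1 arrays of the hosts overlapped. Those of Nlrc5 did not, which was true of 33.8% of all probesets in one direction or the other. Unadjusted p-values of this limma fit were 0.198 for Nlrc5, 0.815 for Mx1 and 0.810 for Trex1. Over all probesets limma called 0.00988%, and 503 of 20246 had an unadjusted p under 0.05. Without WT-host replicate 1 the difference of Trex1 was 0.086 and that of Mx1 -0.034, and without b3KOM-host replicate 2 that of Trex1 was 0.068, so neither gene had a stable direction.

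Macrophage markers read higher on the tumor cell arrays of b3KOM hosts, though limma called 0 of the 12 there. The mean of the 12 macrophage markers was 6.82 and 6.73 on the WT-host arrays and 7.34 and 7.47 on the b3KOM-host ones, with a median difference of 0.64 over genes that the authors chose on these arrays. The part of macrophage RNA in the tumor cell values of Nlrc5, Mx1 and Trex1 was not tested.

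The TAM and tumor cell differences set against each other give an interaction, TAM difference minus tumor cell difference, of -0.54 ± 0.26 (SE) for Nlrc5, -0.63 ± 0.22 for Mx1 and -0.38 ± 0.18 for Trex1. These values contain the contrast of the choice and are given without a test.

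The wider interferon pathway can be read only through the genes that the deposited tables name. On the list of type I interferon-stimulated genes the other 42 are unnamed, as are the remaining genes of the lists for MHC class I presentation (the targets of Nlrc5), for cytosolic nucleic acid sensing (the pathway of Trex1) and for the NOD-like receptor family. Thus no value here tells whether the MHC class I targets of Nlrc5 or the other genes in the pathway of Trex1 moved too. Of the interferon gamma list 12 other genes are named and 11 were tested, all named through the tumor cell table. That table is titled as unique to tumor cells, so their TAM values may have entered the choice as well.

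All 11 of these interferon gamma response genes had lower means in b3KOM TAMs, with a median log2 difference of -0.60 against 0.0057 for all 20246 probesets, of which 48.3% were lower. Limma called 0 of the 11, and 1 had an unadjusted p under 0.05, as did 1300 of the 20246 probesets. Cxcl9, a chemokine that attracts T cells, differed by -0.78 ± 0.47 (SE), and Mpa2l, an interferon-induced GTPase of the GBP family, by -0.65 ± 0.33. Gm4951, an immunity-related GTPase, Cxcl10, another T cell chemokine, and Cd274, the checkpoint ligand PD-L1, differed by -0.60 ± 0.36, -0.36 ± 0.25 and -0.29 ± 0.18.

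The interferon gamma genes varied widely between TAM arrays of 1 genotype. The mean of the 11 genes was 8.48, 8.49 and 9.27 on WT TAM replicates 1, 2 and 3 and 7.98, 7.64 and 8.84 on b3KOM TAM replicates 1, 2 and 3. The b3KOM replicate 3 thus exceeded 2 of the 3 WT arrays, and for 0 of the 11 genes were all b3KOM TAM arrays below all WT ones, which held for 4.11% of all probesets.

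In tumor cells all 11 were lower from b3KOM hosts, with a median difference of -0.79, but the authors had chosen them on those arrays. Iigp1, Irgm and Gbp GTPases belong to this group, as do the chemokines Cxcl9 and Cxcl10. Their receptor Cxcr3, the 1 named gene of the T and NK cell list, measured 5.54 ± 0.33 (SD, n = 3) in WT TAMs and 5.10 ± 0.018 (SD, n = 3) in b3KOM TAMs. Cxcr3 was higher in tumor cells, at 6.51 ± 0.13 (SD, n = 2) from WT hosts and 5.85 ± 0.071 (SD, n = 2) from b3KOM hosts, though it too was chosen on those arrays. Of the 11 genes, 8 were called higher in TAMs than in tumor cells, against 24.9% of all probesets, among them Cxcl10 by 3.64 ± 0.20 (SE), Cxcl9 by 3.004 ± 0.37 and Cd274 by 2.72 ± 0.14, with limma adjusted p of 5.37e-07, 0.000107 and 4.37e-07. The 5 named MHC class II genes were higher in TAMs by a median of 5.09 and differed by a median of -0.15 between TAMs of the genotypes. In tumor cells all 5 were higher from b3KOM hosts, with a median difference of 1.04, and limma called 0 of them. All 5 were named through the tumor cell table, so their choice may enter both genotype differences.

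**Figure D3:**
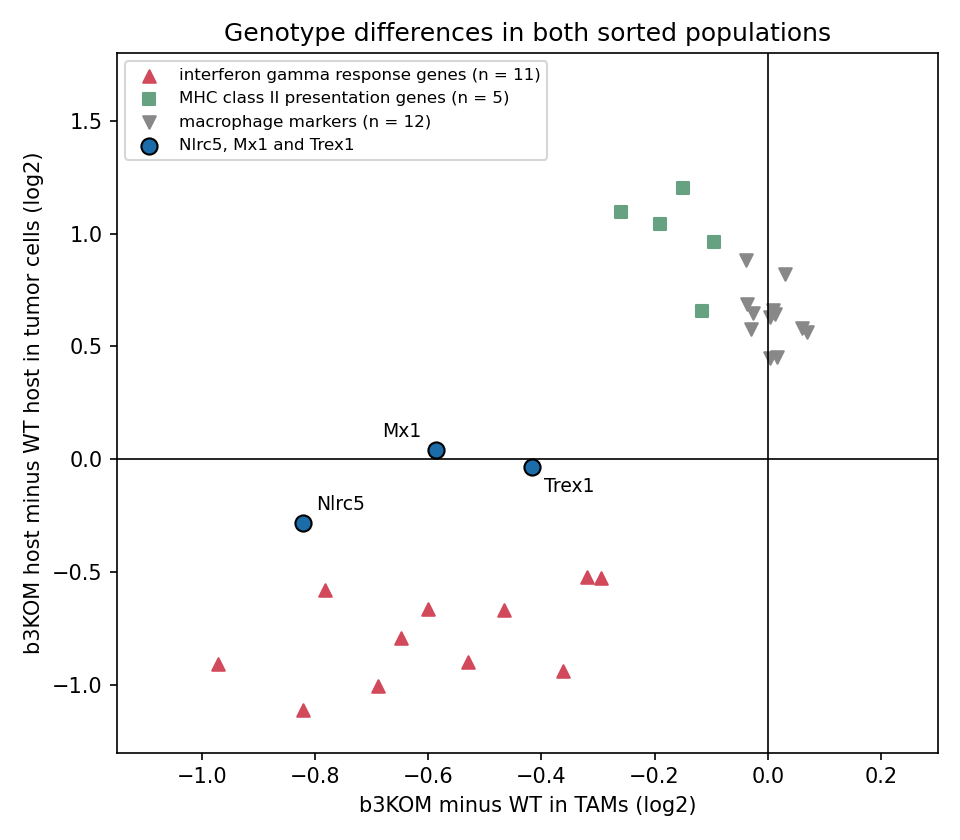
Each point is 1 gene, with its log2 difference between b3KOM and WT TAMs on the horizontal axis and between tumor cells from b3KOM and WT hosts on the vertical axis. Nlrc5, Mx1 and Trex1 (blue) lie left of 0 and between -0.28 and 0.042 vertically, the 11 interferon gamma response genes (red) are in the lower left, and the MHC class II and macrophage genes in the upper part. The blue genes come from the table of genes unique to TAMs and the others from that of genes unique to tumor cells, so the layout follows in part from the choice.

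How far the 3 genes vary together was read from the spread inside each genotype. The difference between genotypes is removed there, though the p-values of the deposited table also rest on that spread. Deviations from the genotype's mean on the 6 TAM arrays of Mx1 and Trex1 went together, with a Pearson r of 0.78 and a Spearman rho of 0.54. For Nlrc5 with Mx1 they were -0.25 and -0.14, and for Nlrc5 with Trex1 0.16 and -0.029. These are descriptions over 6 arrays with 2 means removed. Of the 20245 other probesets 879, or 4.34%, tracked Trex1 at least as closely as Mx1 did, while 41.6% tracked Nlrc5 at least as closely as Trex1 did. The split of Nlrc5 from Trex1 was seen on the WT arrays only, where replicate 1 was the highest for Nlrc5 and the lowest for Mx1 and Trex1. On b3KOM replicates 1, 2 and 3 the deviations of Nlrc5 were 0.081, -0.32 and 0.24. Those of Trex1 were 0.024, -0.12 and 0.094, in the same order.

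Deviations of the mean of the 11 interferon gamma genes correlated with those of Trex1 at r = 0.79 and rho = 0.83, with Nlrc5 at r = 0.44 and rho = 0.49 and with Mx1 at r = 0.25 and rho = 0.37, over the same 6 arrays. The mean of the 5 MHC class II genes correlated with Trex1 at r = 0.81 and rho = 0.83, with Nlrc5 at r = 0.49 and rho = 0.49 and with Mx1 at r = 0.29 and rho = 0.37. The mean of the 12 macrophage markers gave r of -0.0053 with Trex1, -0.59 with Nlrc5 and 0.31 with Mx1. No share over all probesets was taken for these list means, so how unusual the values are was not tested. The within-group SD of the TAM arrays was 0.23 for Nlrc5, 0.21 for Mx1 and 0.12 for Trex1, against a median of 0.19 over all probesets.

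**Figure D4:**
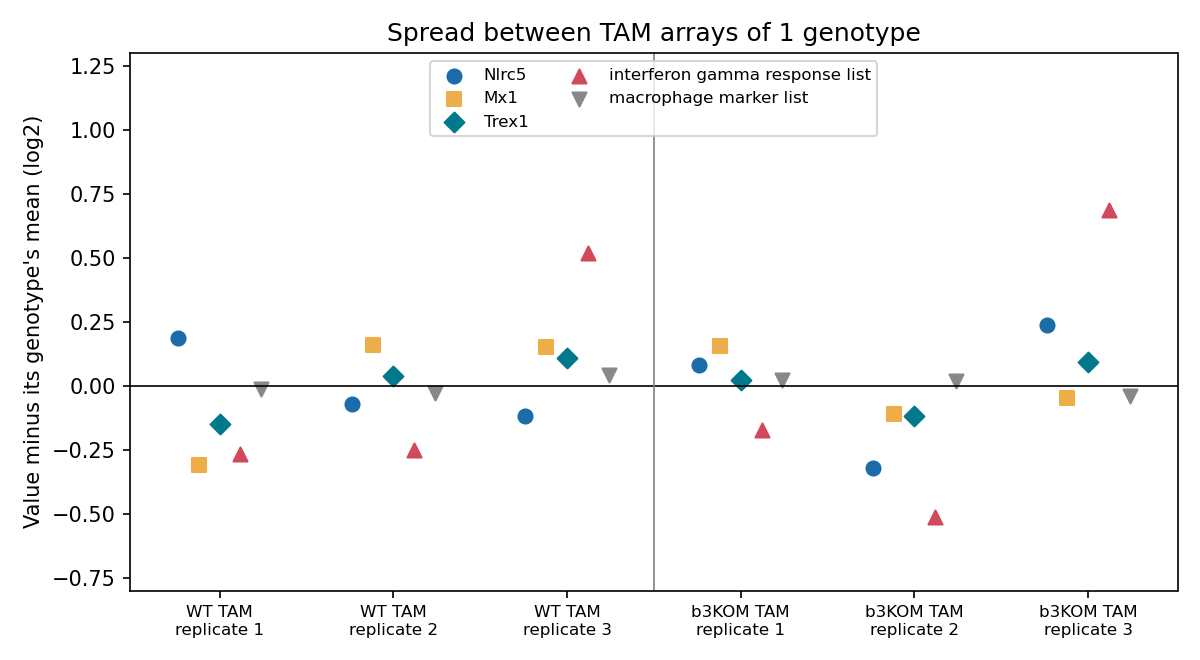
Values on each of the 6 TAM arrays (horizontal axis) minus the mean of their own genotype (vertical axis, log2), for Nlrc5, Mx1, Trex1 and the means of the 11 interferon gamma response genes and of the 12 macrophage markers. The interferon gamma mean swings from -0.51 to 0.69 and the macrophage mean from -0.042 to 0.041. On WT replicate 1 Nlrc5 lies above 0 while Mx1 and Trex1 lie below it, and on b3KOM replicate 2 Nlrc5, Mx1 and Trex1 all lie below it.

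Likeness over all 10 arrays was taken among the 147 tested probesets with a usable gene name, nearly all of them chosen for genotype differences, so it reflects cell type and that choice together. Nlrc5 was most like B9d2, Tcp11l2, Trex1, Gde1 and Mpa2l, with Pearson's r from 0.95 to 0.98. Mx1 was most like Mgl2 (a galactose-binding lectin of macrophages), Trex1, Xlr4b, Acss1 and Mpeg1 (a pore-forming protein of macrophages), with r from 0.98 to 0.99. Trex1 was most like Mx1, B9d2, Mgl2, Acss1 and Cd274, with r from 0.97 to 0.99. Of all 20245 other probesets 4, Mx1 itself among them, were at least as like Trex1 as Mx1 was.

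Nearness by deviations within genotype on the 6 TAM arrays was taken among the same 147 named probesets and not among all those tested. Within that pool Trex1 was nearest to Mgl2 (r = 0.96), Ccl8 (a monocyte-attracting chemokine, r = 0.94), Mid1, Irgm1 (an interferon-induced GTPase) and Cd74 (the MHC class II invariant chain). Mx1 was nearest to Slc30a1 (a zinc exporter, r = 0.94), Rdh13, Zfp12, Mid1 and Mgl2. Genes near Nlrc5 were Amn1 (r = 0.89), Zfp658, Gde1 and H2-DMa, an MHC class II peptide-loading gene. Mgl2 was thus among the 5 named genes nearest to Mx1 and to Trex1 on both measures. Its r with Mx1 within genotypes was only 0.78, about that of Trex1 with Mx1, which 3.99% of all other probesets reached. It averaged 8.34 ± 0.23 (SD, n = 3) in WT TAMs and 7.57 ± 0.22 (SD, n = 3) in b3KOM TAMs. Mid1, with r of 0.93 to Trex1 and 0.85 to Mx1 within genotypes, went the other way between them. It averaged 6.66 ± 0.079 (SD, n = 3) in WT TAMs and 7.63 ± 0.025 (SD, n = 3) in b3KOM TAMs. Ccl8 averaged 11.52 ± 0.20 (SD, n = 3) and 11.42 ± 0.25 (SD, n = 3), so its closeness to Trex1 within genotypes came without a like difference between them.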

How the data were processed

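Per the submitters' processing notes, the deposited log2 values were made with RMA in Affymetrix Expression Console, from 50 ng of amplified RNA per the labels' protocols. No source used here gives versions or the array model. Per the file headers, each of the 2 tables the authors deposited holds log2 fold changes (WT against b3KOM), mean log2 values, a score (t) and an unadjusted p-value. Together they name 251 probesets and served as the source of gene names.

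Groups came from the sample titles. Values were fitted with limma 3.58.1 (lmFit, eBayes) in R 4.3.3, with 6 residual and 2.35 prior degrees of freedom, two-sided, adjusted by Benjamini-Hochberg over 20246 probesets. The fit was tested on simulated data. The genes, lists and tests were chosen with earlier results of these data known. Named besides the 3 genes are, for each, the 5 genes most like it by either correlation (predicted genes, clones and small RNAs left out), up to 6 genes per list by the smallest p between cell types, and examples of the macrophage markers and of the GTPases. Lists for plasmacytoid dendritic cells (1 named gene, Ccr9, not tested), neutrophils and B cells (0 named) gave no value. The number of arrays limits the precision. Some genes that this rule would name are not reported here.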

Additional observations from a re-analysis of the deposited data

How the results depend on the processing

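Across fits on 1 cell type's arrays, no filter, a stricter filter (which drops Nlrc5), cyclic loess, median centring, intensity trend with robust fitting, array weights and leaving out each array, all 16 TAM against tumor cell values of Trex1 kept direction and call, with limma adjusted p from 8.81e-07 to 3.14e-05. Nlrc5 and Mx1 had to differ there through the filter. All 50 TAM genotype differences kept their direction, but the genes were chosen by that contrast and many settings leave the value itself unchanged. In tumor cells 47 of 50 did, though leaving out a TAM array cannot alter these values. The 3 that turned all came from leaving out a tumor cell array. Leaving out 1 array gave -0.034 to 0.12 for Mx1, -0.16 to 0.086 for Trex1 and -0.45 to -0.11 for Nlrc5, none called. Calls over all probesets in the tumor cell comparison (2) were 0 on tumor cell arrays alone, 0 without the filter, 17 with trend and robust fitting, 30 with array weights and 0 to 2 without 1 array. Those in TAMs (3) were 0 on TAM arrays alone, 9 with trend and robust fitting and 0 to 5 without 1 array. Those of the interaction (0, with 11 under trend and robust fitting) otherwise stayed at 0. The causes were not tested. No paired analysis was possible because the labels give the arrays no shared replicate numbers. Signal near background limits Nlrc5 and Mx1 in tumor cells.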
